A study of Mus musculus with 14 samples.

Results

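The genes described here encode the interleukin-6 (IL-6) family receptors and the STAT3 signalling route behind them. They are the 10 rows of the deposited count table with the symbols Osmr, Il6ra, Il6st, Lifr, Cntfr, Clcf1, Jak1, Jak2, Stat3 and Socs3, of 13866 genes listed. Counts were divided by each library's total, adjusted by its TMM factor, to give a level per library size (CPM, the usual unit of read counts scaled to sequencing depth), and compared across 14 brain libraries, each from the brain of 1 mouse of 19 days. All mice were injected intraperitoneally every day from postnatal day 8. WT + PBS and WT + CBE held 3 C57BL/6JOlaHsd mice each, given phosphate-buffered saline (PBS) or 100 mg/kg conduritol B-epoxide (CBE). MyTrMaSt + PBS (3 mice) and MyTrMaSt + CBE (5 mice) were null for the adaptors Myd88, Trif (Ticam1), Mavs and Sting (Tmem173), which relay signals from pathogen recognition receptors. CBE irreversibly inhibits acid beta-glucosidase and so induces neuronopathic Gaucher disease chemically. The brain was homogenised, so all of its cell types were measured together.

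Cytokines of the IL-6 family bind a receptor of their own at the cell surface and share the signalling chain gp130, the product of Il6st. Receptor assembly activates the kinases JAK1 and JAK2, which phosphorylate STAT3, and STAT3 then enters the nucleus and drives transcription. One of its targets is Socs3, whose product binds gp130 and the kinases and shuts the signal off. In the brain the route is best known for its part in the astrocyte response to injury.

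The genes lie on 6 chromosomes of GRCm38 (mm10). Osmr (chr15:6813577-6874969, minus strand) and Lifr (chr15:7090614-7197489, plus strand), which encode the closely related receptor chains for oncostatin M and leukaemia inhibitory factor, are neighbours with 215644 bases between them, and Stat3 (chr11:100885098-100939540) and Socs3 (chr11:117966079-117970047) share chromosome 11. Cntfr and Jak1 are both on chromosome 4, and Clcf1 and Jak2 both on chromosome 19. In GENCODE vM21 the exons of 4 of the genes overlap those of another gene. Il6ra shares 242 bases with the antisense gene Gm42809, Stat3 72 with Stat5a and Jak1 4 with Raver2, all on the opposite strand, and Clcf1 shares 311 with AC109138.7 on the same strand. The use of strand in counting is not given in the sources used here, so reads of these genes and their partners cannot be told apart where the exons overlap.

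RefSeq promoter windows (GRCm38.p6) were found for 9 of the 10 genes, 15 windows in all, and the 250 bases before each start site were searched on both strands. The letters TTCNNNGAA, the core of a STAT site, occur in 8.13% of the 27025 genes with a window. The motif reads the same on both strands. Of the 9 genes 1, Socs3, held these letters. The stretch of the Socs3 window outside annotated exons is shown with that match in capitals, beside the Stat3 window, which has none. Both are on the minus strand, chr11:117969452-117969616 for Socs3 and chr11:100939541-100939790 for Stat3.
Socs3: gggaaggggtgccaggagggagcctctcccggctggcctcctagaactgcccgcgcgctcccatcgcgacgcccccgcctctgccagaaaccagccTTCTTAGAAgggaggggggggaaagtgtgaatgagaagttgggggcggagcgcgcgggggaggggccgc
Stat3: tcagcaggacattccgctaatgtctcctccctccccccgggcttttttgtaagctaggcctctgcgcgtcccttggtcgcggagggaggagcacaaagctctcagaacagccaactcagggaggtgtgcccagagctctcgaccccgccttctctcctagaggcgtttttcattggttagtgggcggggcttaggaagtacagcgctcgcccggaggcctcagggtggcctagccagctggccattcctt
The match in Socs3, TTCTTAGAA, lies at chr11:117969512-117969520. A match is a description of these letters only.

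Library totals ran from 1290616 to 3704691 counts. WT + PBS replicate 1 had the lowest total and stood apart: its genes spread around its group mates with an SD of 1.12 on the log2 scale, against 0.35 to 0.66 in the other 13 libraries. For the 9 tested genes the WT change is also given without it, and list counts are where they change. MyTrMaSt + CBE replicate 4 (0.54) stood out for several of these genes. The deleted adaptors still gave counts in MyTrMaSt libraries. Myd88 was 13.4 ± 3.61 CPM (mean ± SD, n = 3) in WT + PBS and 25 ± 3.76 (n = 3) after CBE, against 3.94 ± 0.734 (n = 3) and 7.30 ± 2.66 (n = 5) in the null mice. Ticam1 and Mavs did not separate the genotypes, with group means of 4.73 to 7.70 and 5.67 to 9.996 CPM, and Tmem173 was lowest in WT + PBS, so counts at the 3′ end do not check these 3 deletions. Xist, transcribed from the inactive X chromosome of females, was at 0 in the 3 WT + PBS libraries and at 0.469 to 18.1 CPM after CBE. In MyTrMaSt it was at 11.05 to 12.2 CPM after PBS and at 0 to 14.6 after CBE, where the library at 0 is replicate 4. The labels do not give the sex of the animals, which by Xist is not balanced between the WT groups or between the PBS groups. A fit with the Xist level as a covariate was therefore run beside the main one. Within groups Xist varied mainly among the CBE libraries, so that fit leans on those near 0, replicate 4 among them.

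CBE raised 3 of the 9 tested genes in WT brain and 4 in MyTrMaSt brain, and lowered none. Osmr and Il6ra, which encode ligand-binding receptor chains, and Socs3, the feedback inhibitor, rose in both genotypes by 3.02-fold to 9.48-fold. Stat3 itself rose by 1.94-fold in MyTrMaSt, a call that was lost when any one of 6 libraries was left out or with the Xist covariate, and it passed in WT only in the fits that left out WT + PBS replicate 1. The shared chain Il6st, the receptor chains Lifr and Cntfr and the kinases Jak1 and Jak2 did not pass the test in either genotype with all libraries, though without WT + PBS replicate 1 Il6st passed in both and Cntfr in MyTrMaSt. Clcf1, a ligand, was below the filter on low counts.

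**Figure D1:**
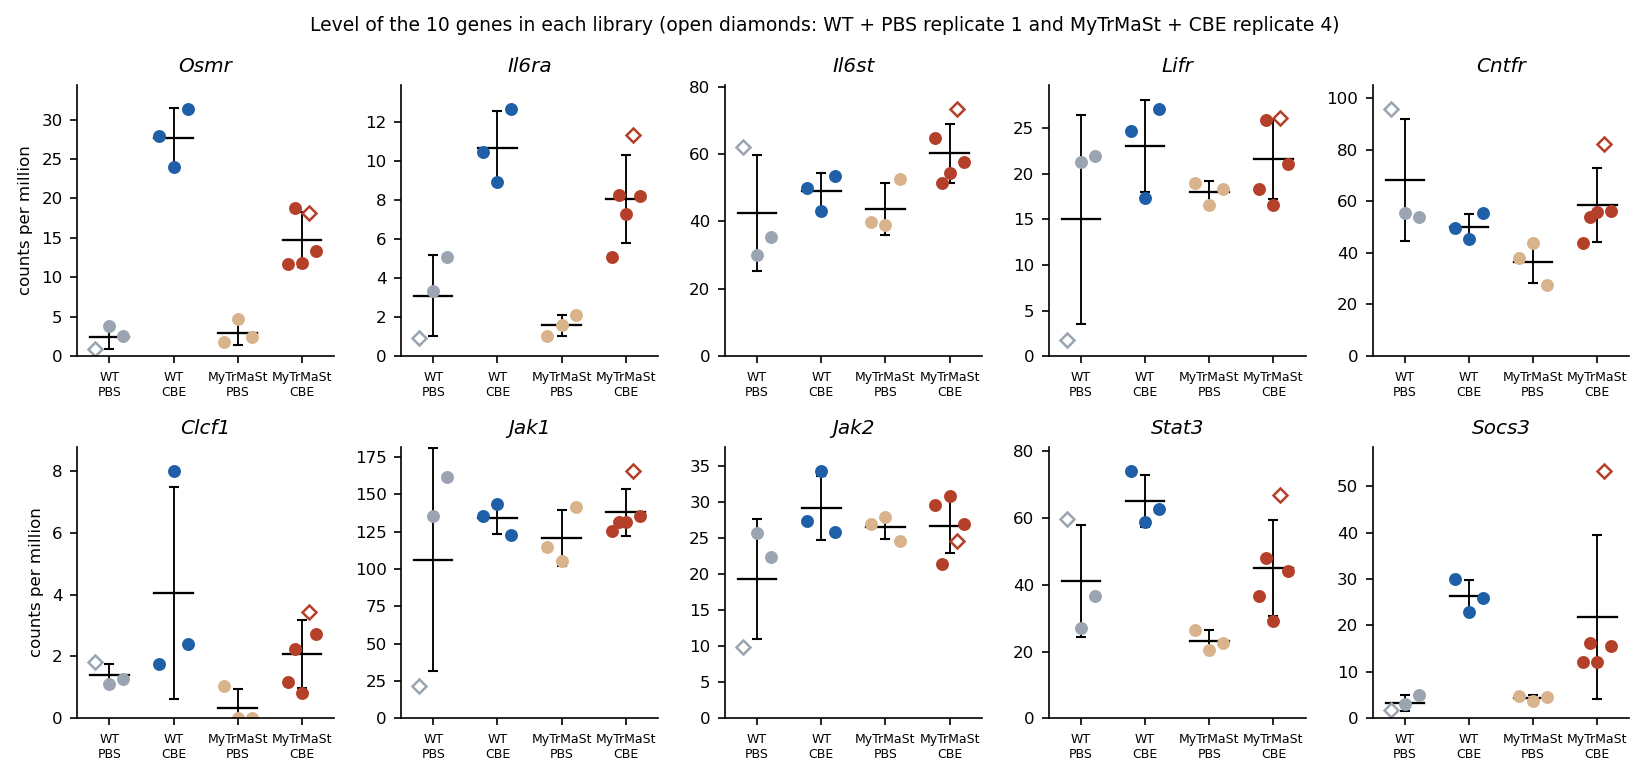
CPM (y axis, linear, from 0) of the 10 genes in each of the 14 libraries, by group; points are mice, lines the group mean and bars the SD. Osmr, Il6ra and Socs3 lie above PBS in every CBE library of the same genotype, while WT + PBS replicate 1 and MyTrMaSt + CBE replicate 4 (open diamonds) often stand at the edge of their groups.

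Across all 11852 tested genes, 6.7% were higher and 3.89% lower in WT + CBE than in WT + PBS at an adjusted p below 0.05, the threshold used here for "rose" and "fell". In MyTrMaSt + CBE against MyTrMaSt + PBS the shares were 5.32% higher and 2.44% lower. The 9 tested genes thus gave 3 and 4 higher and 0 and 0 lower. Their median log2 fold change was 0.50 in WT and 0.67 in MyTrMaSt, against -0.02 and 0.01 over all tested genes. At an unadjusted p below 0.05, 4 of the 9 passed in WT and 6 in MyTrMaSt.

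Osmr encodes the oncostatin M receptor chain, which signals in a pair with gp130. Its level was 0.902, 3.87 and 2.53 CPM in WT + PBS replicates 1 to 3, from 1, 14 and 6 counts, and 27.9, 23.9 and 31.3 CPM with CBE, from 96, 51 and 52 counts. The MyTrMaSt libraries held 1.73, 4.76 and 2.47 CPM with PBS and 11.7, 18.8, 11.8, 18.2 and 13.3 CPM with CBE. All 8 CBE libraries were above all 6 PBS libraries, and the WT + CBE libraries were all above the MyTrMaSt + CBE ones. The rise was 9.48-fold in WT (95% confidence interval 5.22 to 17.2, adjusted p = 5.78e-06) and 4.68-fold in MyTrMaSt (2.81 to 7.80, adjusted p = 0.000282). Between the CBE groups Osmr was 0.533 of the WT + CBE level in MyTrMaSt (0.369 to 0.768), with an adjusted p of 0.0689. Without WT + PBS replicate 1 the WT log2 fold change went from 3.24 to 3.05 (adjusted p = 1.46e-06), and the difference between the CBE groups passed, at a log2 fold change of -0.92 with an adjusted p of 0.0129. The CBE change itself did not differ between genotypes by the interaction test (log2 difference -1.02, SE 0.54, adjusted p = 0.438). In order of level, WT + CBE stood first, MyTrMaSt + CBE second, and the PBS groups, whose ranges overlap, last.

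Il6ra encodes the chain that binds IL-6 itself. It stood at 0.902, 3.32 and 5.06 CPM in WT + PBS (1, 12 and 12 counts) and at 10.5, 8.92 and 12.7 with CBE. MyTrMaSt + PBS libraries held 1.04, 1.59 and 2.11 CPM, from 3, 6 and 6 counts, and with CBE they held 5.07, 8.26, 7.29, 11.3 and 8.22. CBE and PBS libraries did not overlap within either genotype, whereas the CBE groups overlapped each other. Il6ra rose 3.02-fold in WT (1.69 to 5.40, adjusted p = 0.0106) and 4.93-fold in MyTrMaSt (2.62 to 9.25, adjusted p = 0.00107). It was 1.38 on the log2 scale in WT without WT + PBS replicate 1 (adjusted p = 0.0129). The WT call was lost when only the WT libraries entered the fit (log2 fold change 1.62, adjusted p = 0.0747). The PBS groups differed by -1.11 on the log2 scale, MyTrMaSt lower, with an adjusted p of 0.264, and the interaction was 0.70 (SE 0.59, adjusted p = 0.619).

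Il6st, the shared gp130 chain, overlapped between all groups. Its libraries gave 62.3, 30.1 and 35.4 CPM in WT + PBS and 50.04, 43.2 and 53.6 with CBE. In MyTrMaSt they gave 39.7, 38.8 and 52.5 CPM with PBS and 64.7, 51.5, 54.3, 73.4 and 57.5 with CBE. WT + PBS replicate 1 was the highest of its group by a wide margin, and the other libraries lay between 30.1 and 73.4. The log2 fold changes of 0.26 (SE 0.24) in WT and 0.46 (SE 0.20) in MyTrMaSt had adjusted p values of 0.549 and 0.179. With WT + PBS replicate 1 left out both passed, at 0.59 (adjusted p = 0.0464) and 0.47 (adjusted p = 0.0290), well under 2-fold.

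Lifr, the receptor chain for leukaemia inhibitory factor, gave 1.80, 21.3 and 21.9 CPM in WT + PBS, from 2, 77 and 52 counts. The other groups lay between 16.6 and 27.1 CPM. Most of the change in WT thus went with replicate 1, as the log2 fold change of 0.44 (SE 0.38, adjusted p = 0.516) was 0.10 without it. In MyTrMaSt it was 0.26 (SE 0.32, adjusted p = 0.662).

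Cntfr encodes the chain that binds ciliary neurotrophic factor and the Clcf1 product, and has no signalling domain of its own. It was 95.7, 55.5 and 54 CPM in WT + PBS, and 49.5, 45.5 and 55.4 with CBE. In MyTrMaSt it was 37.98, 43.9 and 27.5 CPM with PBS, and with CBE it was 43.6, 54.1, 55.9, 82.2 and 56.4 CPM. The 3 MyTrMaSt + PBS libraries were the lowest apart from 1 MyTrMaSt + CBE library that lay just under the highest of them. The CBE change was -0.41 on the log2 scale in WT (SE 0.25, adjusted p = 0.338) and 0.67 in MyTrMaSt (SE 0.22, adjusted p = 0.0800), and the latter passed without WT + PBS replicate 1 (0.67, adjusted p = 0.0123), where the WT change shrank to -0.12. In the main fit, Cntfr was the only one of the 9 whose interaction had an unadjusted p below 0.05 (log2 difference 1.08, 95% confidence interval 0.38 to 1.79, adjusted p = 0.219). It was 0.79 without WT + PBS replicate 1 (adjusted p = 0.262) and 0.79 with the Xist covariate (adjusted p = 0.576). The PBS groups differed by -0.86 (SE 0.25, adjusted p = 0.142) with no overlap, and by -0.59 without that library (adjusted p = 0.297).

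Clcf1, a ligand for the Cntfr chain, had 2, 4 and 3 counts in WT + PBS and 6, 17 and 4 with CBE. In MyTrMaSt it had 3, 0 and 0 counts with PBS and 3, 6, 2, 7 and 7 with CBE. The counts were too low for the filter and no test was made. WT + CBE replicate 2, at 7.98 CPM, was the highest library, and the next highest, at 3.45, was MyTrMaSt + CBE replicate 4.

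Neither kinase passed the test in either genotype. Jak1, which is bound to gp130 and the receptor chains, gave 21.7, 135 and 162 CPM in WT + PBS, and every other library lay between 105 and 165 CPM. In WT it differed by 0.29 on the log2 scale (SE 0.37, adjusted p = 0.695), which turned to -0.13 without WT + PBS replicate 1, and in MyTrMaSt by 0.19 (SE 0.33, adjusted p = 0.769). Jak2 gave 9.93, 25.7 and 22.4 CPM in WT + PBS and 27.3, 34.3 and 25.9 with CBE, a change of 0.50 (SE 0.25, adjusted p = 0.228) that was 0.28 without WT + PBS replicate 1. These WT groups did not overlap, though the highest PBS library and the lowest CBE library lay close together. In MyTrMaSt its PBS libraries held 26.9, 28.0 and 24.7 CPM and its CBE libraries 21.4 to 30.8, and the difference was 0.01 with a 95% confidence interval of -0.43 to 0.45. For both kinases WT + PBS replicate 1 was the lowest of the 14 libraries.

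Stat3, the transcription factor of the route, stood at 59.6, 27.1 and 36.7 CPM in WT + PBS and at 73.9, 58.7 and 62.7 with CBE. In MyTrMaSt it was 26.6, 20.3 and 22.5 CPM with PBS, and with CBE 36.6, 48.1, 29.2, 67.0 and 44.2. The MyTrMaSt groups did not overlap, and the WT groups overlapped through WT + PBS replicate 1. The WT change was 1.66-fold (1.11 to 2.51, adjusted p = 0.111), and without that library it was 1.06 on the log2 scale (adjusted p = 0.00619). In MyTrMaSt Stat3 rose 1.94-fold (1.33 to 2.82, adjusted p = 0.0312). That call was lost without MyTrMaSt + CBE replicate 4, the highest library (log2 fold change 0.78, adjusted p = 0.0669), and also when any one of MyTrMaSt + PBS replicates 1, 2 and 3 or MyTrMaSt + CBE replicates 2 and 5 was left out (adjusted p 0.0516 to 0.129). It was lost with the Xist level as a covariate too (log2 fold change 0.87, adjusted p = 0.0683). The interaction was 0.22 (SE 0.38, adjusted p = 0.835). The MyTrMaSt + PBS libraries lay below all WT + PBS libraries (log2 difference -0.76, SE 0.29, adjusted p = 0.211). With the Xist covariate that difference was -0.45 (adjusted p = 0.673).

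Socs3, the feedback inhibitor, was 1.80, 3.04 and 5.06 CPM in WT + PBS, from 2, 11 and 12 counts, and 29.97, 23 and 25.9 with CBE. MyTrMaSt + PBS libraries held 4.83, 3.70 and 4.58 CPM, and with CBE they held 12.1, 16.1, 12.2, 53.2 and 15.7. Every CBE library was above every PBS library. MyTrMaSt + CBE replicate 4, at 53.2 CPM from 108 counts, was the highest of all 14, while its 4 mates lay below the 3 WT + CBE libraries. Socs3 rose 7.45-fold in WT (3.06 to 18.1, adjusted p = 0.00197) and 4.88-fold in MyTrMaSt (2.37 to 10.1, adjusted p = 0.00581). Without replicate 4 the MyTrMaSt log2 fold change went from 2.29 to 1.69 (adjusted p = 0.000608), and the CBE groups, which with all libraries differed by -0.31 with no call, differed by -0.92 with an adjusted p of 0.0219. With the Xist level as a covariate the WT log2 fold change went from 2.90 to 4.03 (adjusted p = 8.58e-05), and without WT + PBS replicate 1 it was 2.77 (adjusted p = 0.00171). The interaction for Socs3 was -0.61 (SE 0.79, adjusted p = 0.762), and it was -1.21 without MyTrMaSt + CBE replicate 4 (adjusted p = 0.269) and -2.19 with the Xist covariate (adjusted p = 0.354). In both of these fits its unadjusted p was below 0.05. Replicate 4, whose Xist level is the lowest of its group, weighs on the covariate fit. The Socs3 values with that covariate are thus not independent of this library, and the covariate fit was not run without it.

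**Figure D2:**
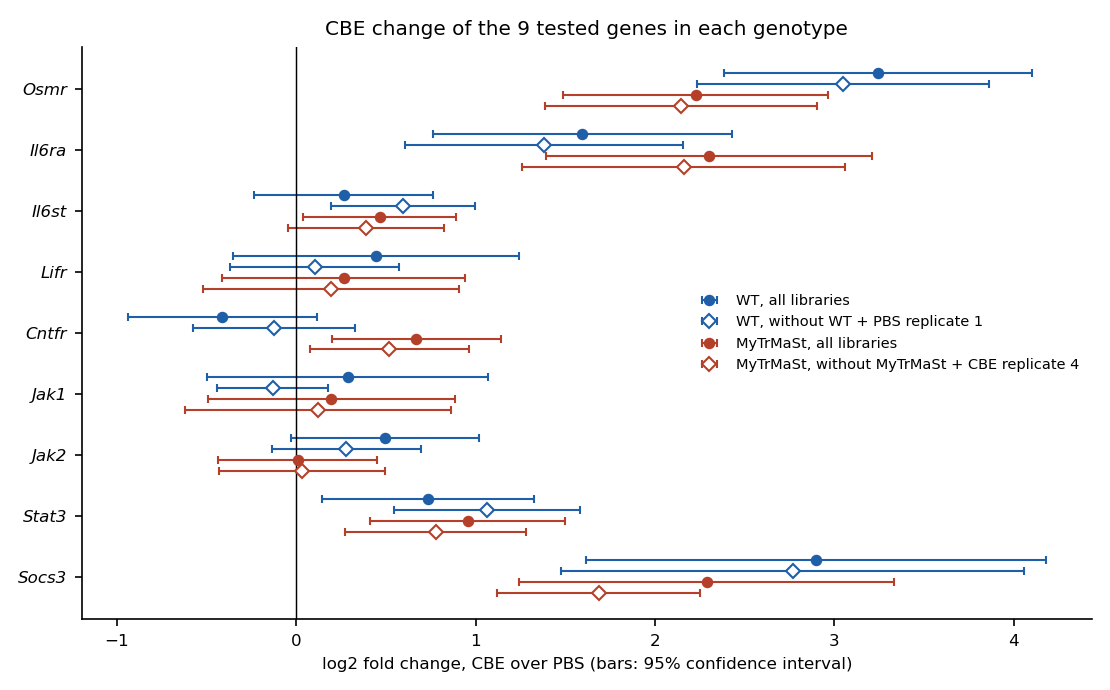
Log2 fold change of CBE over PBS (x axis) of the 9 tested genes in WT and MyTrMaSt, with all libraries (filled circles) and without the 1 library that stands apart in that genotype (open diamonds); bars are 95% confidence intervals. Osmr, Il6ra and Socs3 lie well to the right of 0 in each case, Stat3 between 0.74 and 1.06, and the intervals of Lifr, Jak1 and Jak2 include 0.

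Without WT + PBS replicate 1, 5 genes rose in WT (Osmr, Il6ra, Il6st, Stat3 and Socs3), with 8.58% of the 12090 genes then tested higher and 4.05% lower. In MyTrMaSt 6 rose (these 5 and Cntfr), with 10.7% higher and 7.87% lower. No MyTrMaSt library was removed in that fit, whose 4 groups share 1 estimate of spread. Without MyTrMaSt + CBE replicate 4, Osmr, Il6ra and Socs3 rose in each genotype, with 7.15% of the 11828 genes then tested higher in WT and 4.65% in MyTrMaSt.

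With all libraries, the direct comparisons of the genotypes called none of the 9 genes by edgeR's earlier quasi-likelihood method, the main test, and its newer default method called 1 between the CBE groups. With 1 library left out, Osmr or Socs3 passed between the CBE groups, as given above. Between the CBE groups 0.194% of all tested genes were higher and 2.35% lower in MyTrMaSt, and 2 of the 9 (Osmr and Stat3) had an unadjusted p below 0.05, both lower in MyTrMaSt. DESeq2 and limma-voom each called 1. Between the PBS groups 0.0337% of all genes were higher and 0.152% lower, and 3 of the 9 (Il6ra, Cntfr and Stat3) had an unadjusted p below 0.05, all lower in MyTrMaSt. Here DESeq2 called 1 and limma-voom 0. Xist separates these groups (0 CPM in WT + PBS, 11.05 to 12.2 in MyTrMaSt + PBS), so genotype and sex cannot be told apart between them. With the Xist covariate the 3 unadjusted p values were 0.207, 0.122 and 0.294 in the same order. The interaction passed in 0.489% of all tested genes and in 0 of the 9, with 1 at an unadjusted p below 0.05 and 0 by DESeq2 and by limma-voom. The comparisons share groups and are not independent of each other.

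The ligands were mostly close to the floor of the table. Of 10 ligand genes on the list 5 were counted and 2 passed the filter. Osm, the ligand of the Osmr chain, had 1 count in the 6 PBS libraries together, and with CBE it had 5, 2 and 2 counts in WT and 1, 7, 0, 2 and 3 in MyTrMaSt. Lif had 0 to 3 counts in 13 libraries and 13 counts, 6.40 CPM, in MyTrMaSt + CBE replicate 4, the library with the highest Socs3. Il11 had 1 to 7 counts in every library. These 3 were not tested. Ctf1, encoding cardiotrophin, rose in WT (2.63-fold, 4.77 ± 1.09 CPM in WT + CBE, n = 3, adjusted p = 0.0441). Ebi3, a subunit of IL-27 and IL-35, rose in WT from 6.32, 4.97 and 3.80 CPM to 9.89, 12.7 and 13.9 (2.45-fold, adjusted p = 0.00576) and was lower in MyTrMaSt + CBE than in WT + CBE (log2 difference -1.45, adjusted p = 0.00128). With the Xist level as a covariate neither Ctf1 (adjusted p = 0.203) nor Ebi3 (adjusted p = 0.0787) passed in WT. Il6, Cntf, Ctf2, Il27 and Il31 have no row under these symbols in the deposited counts and could not be tested.

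Among 6 other receptor genes of the family and its relatives 2 were tested. Csf3r, the receptor for granulocyte colony-stimulating factor, rose in WT (5.31-fold, adjusted p = 0.00383) and in MyTrMaSt (3.43-fold, adjusted p = 0.0367, but 0.0740 without MyTrMaSt + CBE replicate 4 and 0.0678 with the Xist covariate), from counts of 1 to 5 in the PBS libraries. Il11ra1 had log2 fold changes of 0.15 and 0.20 that did not pass.

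Of 4 other JAK and STAT genes tested, 1 rose in WT and 1 in MyTrMaSt. Over all tested genes 6.7% and 5.32% were higher, so counts this small are no result about the list. Stat2, which carries type I interferon signals, rose 3.15-fold in WT (adjusted p = 1.57e-05), and its MyTrMaSt groups overlapped (interaction -1.70, adjusted p = 0.00521). That interaction did not pass with the Xist level as a covariate (adjusted p = 0.161). Stat6, of the interleukin-4 route, rose 3.01-fold in MyTrMaSt (adjusted p = 0.0400). Tyk2 and Stat5b passed in neither genotype.

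Of 14 other inhibitors and phosphatases tested, 1 rose in WT, 2 rose in MyTrMaSt and 0 fell, beside 6.7% and 5.32% of all tested genes that were higher, so counts this small are no result about the list. Ptpn6 encodes SHP-1, a phosphatase of blood cells and microglia, and went from 5.41, 4.70 and 2.53 CPM to 34.3, 36.1 and 23.5 in WT (7.67-fold, adjusted p = 1.28e-06). In MyTrMaSt it rose 6.65-fold (adjusted p = 1.33e-05), and it was lower in MyTrMaSt + CBE than in WT + CBE (log2 difference -1.21, adjusted p = 0.00158). Ptpn11 (SHP-2), which docks on gp130, rose 1.47-fold in MyTrMaSt (adjusted p = 0.0248, but 0.0502 without MyTrMaSt + CBE replicate 4 and 0.0506 with the Xist covariate). Socs1 and Socs2, the closest relatives of Socs3 on the list, had log2 fold changes of 0.70 and 0.21 in WT and 0.23 and 0.32 in MyTrMaSt, and none of these passed. In WT, 2 of the 14 rose and 1 fell without WT + PBS replicate 1. Of 9 adaptors and kinases that branch from gp130, 3 rose in WT and 0 in MyTrMaSt. They were Shc1 (1.90-fold), Gab2 (2.42-fold) and Fes (2.78-fold), of which Shc1 did not pass with the Xist covariate (adjusted p = 0.0538). Without WT + PBS replicate 1 these 3 rose in WT, and 1 of the 9 rose and 1 fell in MyTrMaSt. No interaction passed on either list.

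Of 18 tested genes known as STAT3 targets, 8 rose and 1 fell in WT, and 8 rose in MyTrMaSt, beside 6.7% higher and 3.89% lower in WT and 5.32% higher in MyTrMaSt over all tested genes. These lists were chosen with earlier results of these libraries known, and the study itself singled out several of the genes from them, so the counts are not independent evidence of a direction. Bcl3, Icam1, Lcn2, Gfap, Timp1, A2m and Serpina3n rose in both genotypes. Gfap, the intermediate filament of astrocytes, went from 98.4, 40.6 and 27.4 CPM to 580, 480 and 498 in WT, and from 52.5, 54.9 and 46.1 to 467, 614, 451, 470 and 532 in MyTrMaSt. The rises of 9.93-fold and 9.89-fold gave an interaction of -0.01 with a 95% confidence interval of -0.82 to 0.80. Lcn2, encoding the iron-carrier binding protein lipocalin-2, reached 380, 519 and 750 CPM in WT + CBE but 15.2 to 25.5 in MyTrMaSt + CBE (interaction -4.84, adjusted p = 0.00847). Serpina3n, a protease inhibitor of reactive astrocytes, rose 57.0-fold in WT and 17.2-fold in MyTrMaSt (interaction -1.73, adjusted p = 0.0272). With the Xist level as a covariate the interaction p values of Lcn2 and Serpina3n were 0.0579 and 0.0558 after adjustment.

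Timp1, an inhibitor of matrix metalloproteinases, rose 59.2-fold in WT and 13.5-fold in MyTrMaSt, and A2m, a broad protease inhibitor, 17.1-fold and 7.42-fold. Bcl3, a co-regulator of NF-kappaB, rose 15.8-fold and 7.42-fold, and Icam1, an adhesion molecule, 10.1-fold and 3.26-fold. With all libraries Myc passed in WT (1.92-fold, adjusted p = 0.0411) and not in MyTrMaSt, and Cebpb passed in MyTrMaSt (2.17-fold, adjusted p = 0.0198) and not in WT. Without WT + PBS replicate 1 this turned over: Myc passed in MyTrMaSt (adjusted p = 0.0305) and not in WT (0.0522), and Cebpb passed in both (0.0173 in WT). In neither did the interaction pass. That fit called 9 of the 18 higher and 1 lower in WT, and 9 higher in MyTrMaSt. Over all genes it called 8.58% higher and 4.05% lower in WT, and 10.7% higher in MyTrMaSt. Vegfa, encoding an endothelial growth factor, fell in WT (0.450 of the PBS level, adjusted p = 0.0233), a call lost with the Xist covariate (adjusted p = 0.509). Its WT groups did not overlap (46.4 to 55.3 CPM with PBS, 21.1 to 25.9 with CBE). The Xist fit was not run without MyTrMaSt + CBE replicate 4, the highest Vegfa library of its group at 82.2 CPM. Between the CBE groups 5 of the 18, Bcl3, Icam1, Lcn2, Timp1 and Serpina3n, were lower in MyTrMaSt, beside 2.35% of all tested genes. A2m joined them without WT + PBS replicate 1 (adjusted p = 0.0121), where 3.06% of all genes were lower.

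**Figure D3:**
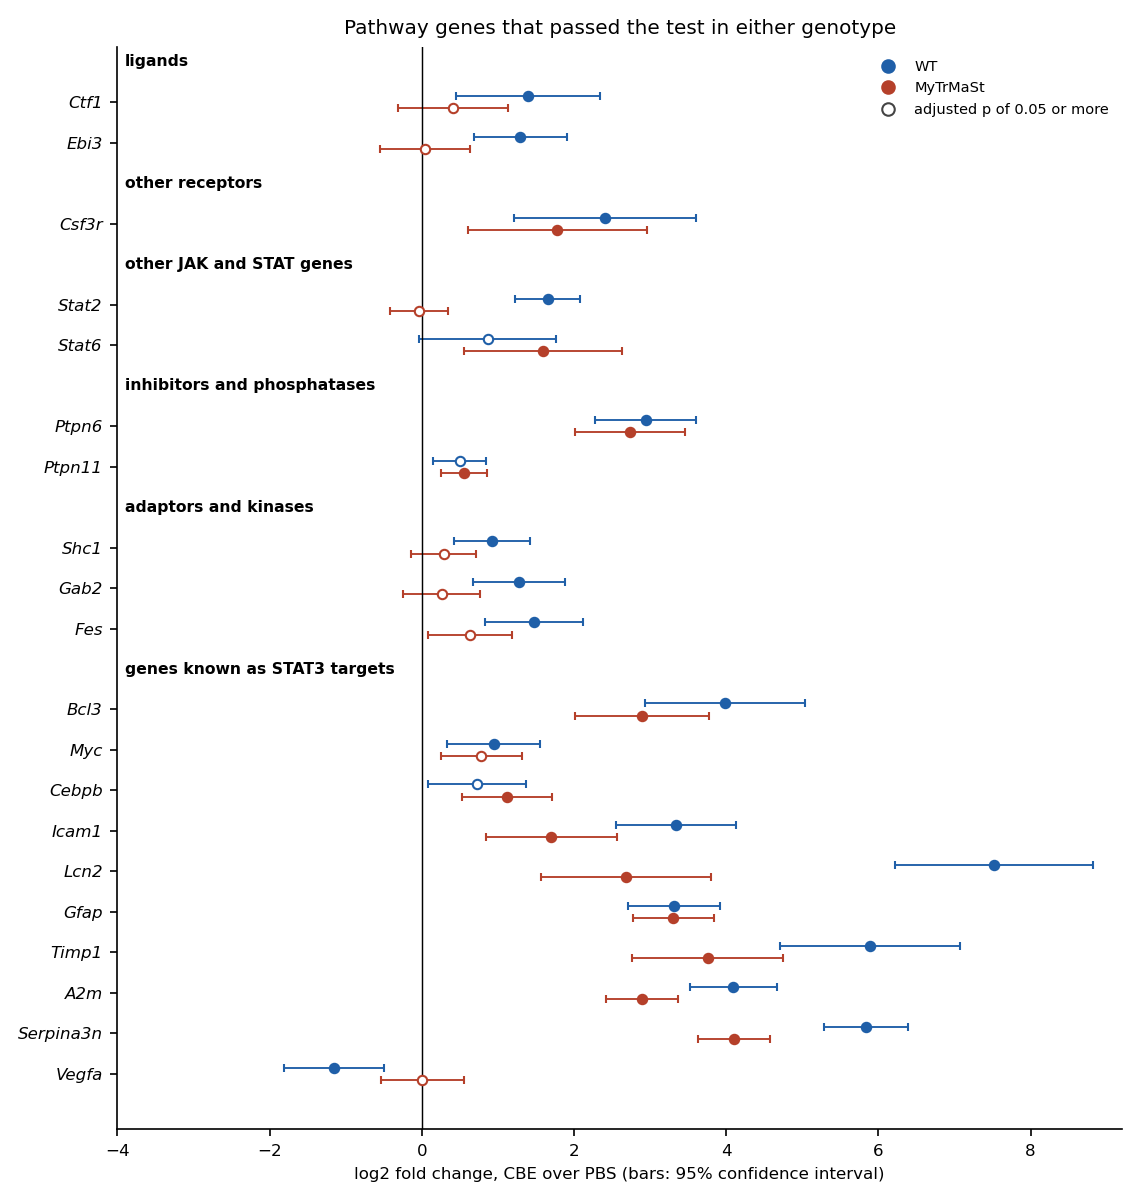
Log2 fold change of CBE over PBS (x axis) in WT and MyTrMaSt for the pathway genes that passed the test in either genotype, by list; bars are 95% confidence intervals and open circles had an adjusted p of 0.05 or more. Gfap has the same position in both genotypes, whereas Stat2, Lcn2 and Serpina3n lie further right in WT.

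Cell type markers moved along with these genes. The summed level of 7 microglia markers went from 182 to 189 CPM over the WT + PBS libraries to 376 to 459 with CBE. In MyTrMaSt it was 180.3 to 202 CPM with PBS and 258 to 304 with CBE. Of the 7, 4 rose in WT and 3 in MyTrMaSt, while P2ry12, Tmem119 and Siglech passed in neither. Over all tested genes 6.7% were higher and 3.89% lower in WT, and 5.32% and 2.44% in MyTrMaSt. In the fit without WT + PBS replicate 1 these shares were 8.58% and 4.05% in WT and 10.7% and 7.87% in MyTrMaSt. Without WT + PBS replicate 1, Tmem119 also rose in WT (5 of 7), and with the Xist covariate 2 of 7, Aif1 and Csf1r, rose there. The 8 astrocyte markers summed to 2945 to 3517, 4049 to 4443, 3437 to 3859 and 4480 to 4853 CPM in the same order. Of these, 3 rose in each genotype and 1 fell in WT, with Gfap the largest rise. With WT + PBS replicate 1 left out, 4 rose in WT and 5 in MyTrMaSt, and 0 fell. The 8 oligodendrocyte markers summed to 15560 to 18524 CPM over WT + PBS and 9687 to 12425 with CBE, where 5 of 8 fell, and to 15813 to 18675 and 11820 to 15923 in MyTrMaSt, where 0 passed. Leaving out WT + PBS replicate 1 gave 6 that fell in WT and 2 in MyTrMaSt, in a fit where the share of all genes that were lower in MyTrMaSt was 7.87%, against 2.44% with all libraries. The 8 neuron, 8 astrocyte and 8 oligodendrocyte markers were counted in every library. The part of these cell types in the changes of Osmr, Il6ra and Socs3 was not tested, and in bulk tissue more cells of a type and more RNA per cell cannot be told apart. Of 7 mural and fibroblast markers counted, Rgs5 fell in both genotypes and Cspg4 rose in MyTrMaSt. Of 6 endothelial markers tested 0 rose and Tek fell in MyTrMaSt. Beside the shares given above, counts this small are no result about these lists or the next ones. Of the neuron markers 2 fell in WT (Tubb3 and Slc17a7, and with the Xist covariate Tubb3 alone) and 1 in MyTrMaSt. Of 6 choroid plexus markers and the 1 blood cell marker tested 0 passed. The fit without WT + PBS replicate 1 had 3 neuron markers that fell in WT, Syt1, Tubb3 and Stmn2, and Slc17a7 was not among them. In MyTrMaSt 2 neuron markers fell and 1 rose in that fit. There 2 of 7 endothelial and 1 of 6 choroid plexus markers also fell, beside the same 7.87% of all genes. Rgs5 did not pass in WT with the Xist covariate (adjusted p = 0.122).

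**Figure D4:**
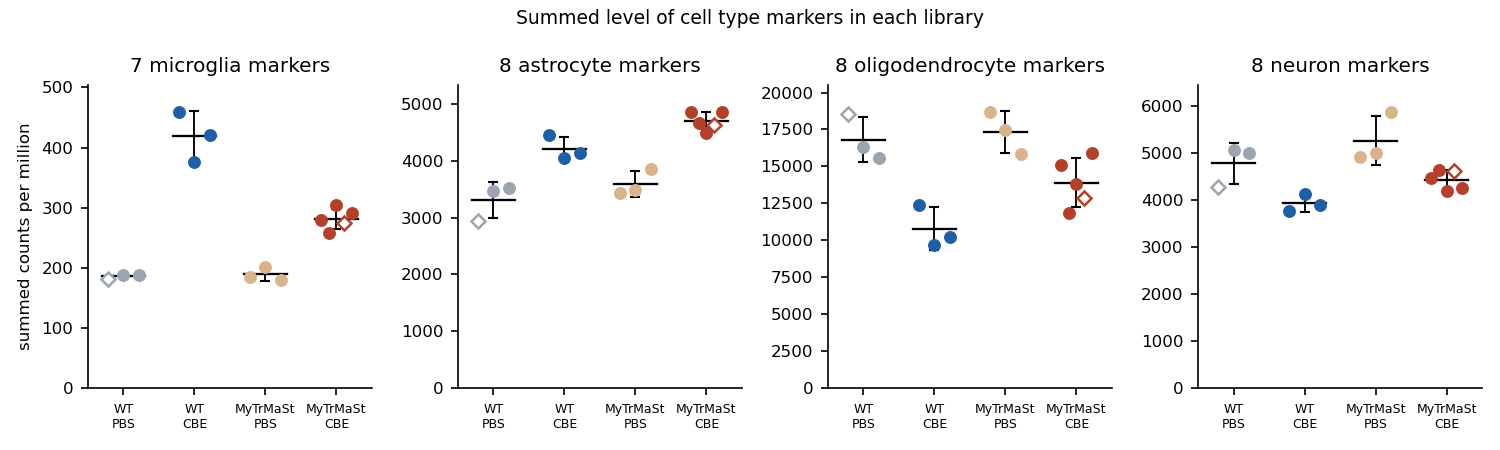
Summed CPM (y axis, from 0) of 7 markers of microglia and 8 each of astrocytes, oligodendrocytes and neurons, by group; points are libraries, lines the mean and bars the SD. Microglia markers are highest in WT + CBE (376 to 459), and oligodendrocyte markers are lowest there.

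The genes whose levels across the 14 libraries were most like those of the 3 most changed genes were found by the root mean square difference of centred log2 CPM, over 10679 genes. For Osmr these were Hvcn1 (0.36), Klhl6 (0.40), Adgre1 (0.42) and Adam8 (0.44), against a spread of 1.495 for Osmr around its own mean. Adgre1 is the macrophage and microglia marker F4/80. For Socs3 they were S1pr3 (0.35), Rhoj (0.38), Hspb6 (0.40) and Blnk (0.41), against 1.34. For Il6ra they were Adam8 (0.44), AF251705 (0.49) and Arhgap25 (0.50), against 1.15, so Adam8 is near both receptor genes.

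The departure of WT + PBS replicate 1 was uneven over the 9 genes. On the log2 scale against its mates, Lifr was at -3.27, Jak1 at -2.75, Il6ra at -1.69, Osmr at -1.32, Jak2 at -1.22 and Socs3 at -0.91, whereas Cntfr was at 0.81, Stat3 at 0.90 and Il6st at 0.93. Lifr lay at percentile 1.92 of all tested genes and Jak1 at 3.37, and Il6st at 87.6. Over all tested genes the departure moved with the GC content of the transcript: split into 10 equal bins by GC, the median was -1.07 in the lowest bin and 0.56 in the highest (Spearman rho 0.53 across 11196 genes, which are not independent replicates). Cntfr (59.8% GC) and Socs3 (58.7%) are both in the highest bin but moved in opposite directions, and Il6st (47.4%) lies above the middle 50% of its bin. The part of base composition in the values of this library was not tested gene by gene.

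**Figure D5:**
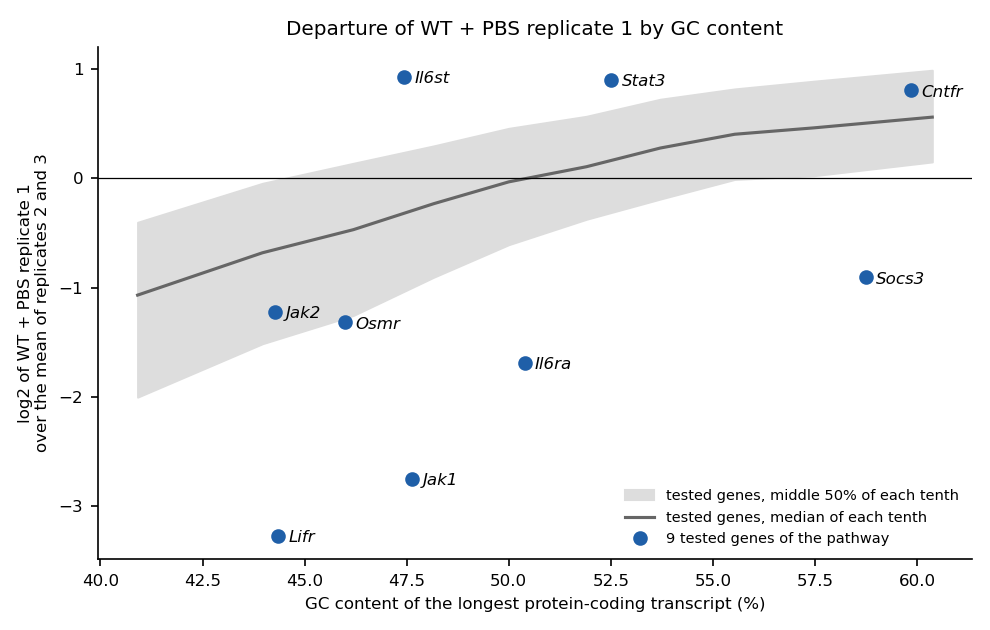
Log2 ratio of WT + PBS replicate 1 to the mean of replicates 2 and 3 (y axis) against the GC content of the longest protein-coding transcript (x axis, percent) for the 9 tested genes; the line and band are the median and middle 50% of all tested genes in 10 bins of GC content. Lifr, Jak1, Il6ra and Socs3 lie below the band, Osmr at its lower edge, just under the middle 50% of its bin, and Il6st and Stat3 above the band.

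MyTrMaSt + CBE replicate 4 was the highest of its 5 libraries for 8 of the 10 genes. It exceeded the mean of its 4 mates 3.80-fold for Socs3, 1.98-fold for Clcf1, 1.69-fold for Stat3, 1.57-fold for Il6ra and Cntfr and 1.26-fold to 1.29-fold for Il6st, Lifr and Jak1. Osmr was second highest there and Jak2 second lowest. Its summed microglia markers, at 274 CPM, were the second lowest of the 5, and its Xist level was 0.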

How the data were processed

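Bulk MARSseq libraries, which read transcript 3′ ends, were made from the brains of 14 mice and sequenced on an Illumina NextSeq instrument. The authors mapped reads to mm10 with hisat and kept unique reads; the submitters' processing notes also name cutadapt and HTSeq. The deposited raw counts are whole reads per gene, and the annotation and whether strand or molecular identifiers entered the counting are not given in the sources used here. No listed gene has a highest count below 6, and 22 gene names had been turned into dates. The deposited normalized values and the authors' fold changes and p-values for CBE over PBS were not used.

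Counts were tested in R 4.3.3 with edgeR 4.0.16 (filterByExpr on the groups, TMM, quasi-likelihood F test by the earlier method, legacy = TRUE, 4 group means, 14 libraries) with Benjamini-Hochberg adjustment over 11852 genes. CPM use TMM-scaled library sizes, and errors are SD over mice. A call needed an adjusted p below 0.05, and a DEG also a 2-fold change. The precision is limited by 1290616 to 3704691 counts per library. Alternatives were DESeq2 1.42.0, limma-voom (limma 3.58.1), other scaling, filters, libraries and covariates. No pair of libraries was a duplicate (chi-square per degree of freedom 2.31 to 20.2 over 19 pairs). GC content was taken from GENCODE vM21 transcripts with python.

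The genes and lists were chosen with earlier results of these data known. Named were all 10 genes, each pathway gene that was a DEG or passed the interaction, each tested ligand, and the 4 nearest genes by likeness, with a mean of at least 5 CPM, to the 3 most changed; Osm, Lif, Il11, Il11ra1, Tyk2, Stat5b, Socs1, Socs2, Myc, Shc1, Ptpn11, Xist and single cell type markers were added after their values were seen. Lists were ligands, other receptors, JAK and STAT genes, inhibitors, adaptors, STAT3 targets, and markers of 8 cell types. A few genes of these lists and under this naming rule are not reported here and were left out of the list counts and marker sums.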

Additional observations from a re-analysis of the deposited data

Results flagged for a closer look

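In MyTrMaSt + CBE, the only group with enough libraries for the check, 8 of 33 genes had 1 library farther from the rest than Dixon's 95% limit for 5 samples (0.71 of the range); chance alone flags about 1 in 20 groups of independent values, but these genes share their libraries and some were added after their values were seen, so their number cannot be read against that share. Bcl3, Cebpb and Timp1 passed the limit only narrowly. Of the 10 pathway genes 2 were flagged, both highest in replicate 4: Socs3 at 53.2 CPM against 12.1 to 16.1 in its mates, and Jak1 at 165 CPM against 125 to 136. Of the other genes, replicate 4 was highest for Lif (6.40 CPM against 0 to 1.22), Bcl3 (15.3 against 6.48 to 9.01), Cebpb (70.4 against 26.1 to 38.8), Timp1 (42.3 against 16.4 to 23.9) and Vegfa (82.2 against 30.9 to 36.6). Replicate 5 was lowest for Shc1 (10.6 against 14.8 to 15.6).

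The CBE change differed between the genotypes by the interaction test for Stat2 (-1.70 on the log2 scale, MyTrMaSt minus WT), Lcn2 (-4.84) and Serpina3n (-1.73), and none of the 3 passed with the Xist level as a covariate (adjusted p = 0.161, 0.0579 and 0.0558). None of the 9 tested genes of the receptor and STAT3 route differed in its CBE change at an adjusted p below 0.05 in the main edgeR fit, where 1 had an unadjusted p below 0.05.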

How the results depend on the processing

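Osmr, Il6ra and Socs3 rose in both genotypes under each alternative that could test them, except Il6ra in WT with only the WT libraries fitted. The number that rose with CBE in WT, 3, was 0 when at least 10 counts were asked of every library, a filter that left 5 of the 9 genes, 5 with WT + PBS replicate 1 and MyTrMaSt + CBE replicate 4 both left out (chosen after seeing the data, as was the default method of edgeR 4), and 3 to 5 with 1 library left out. The number in MyTrMaSt, 4, was 1 under that filter, 3 with the Xist covariate, which ended the call of Stat3, and 3 to 6 with 1 library left out. The number that differed between the CBE groups, 0, was 1 with DESeq2, limma-voom, only the groups compared and the default method of edgeR 4, 3 with both libraries left out, and 0 to 1 with 1 left out. Between the PBS groups it was 1 with DESeq2.

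With the replicate number as a block, 3 rose in MyTrMaSt, Stat3 going to 0.70 on the log2 scale (adjusted p = 0.207) and its interaction to -0.032. The interaction of Socs3 went to -1.25 (adjusted p = 0.532). Deviations of libraries with the same number correlated at -0.11 to 0.02. These values show no pairing of the mice by number, but with groups this small they cannot exclude one. Signs turned only for changes that passed no test with all libraries. Jak1 in WT was -0.13 with both libraries left out and -0.13 to 0.68 with 1 left out. Jak2 in MyTrMaSt was -0.0026 with limma-voom, -0.0010 under the filter of 10, -0.033 with the Xist covariate and -0.049 to 0.079 with 1 left out. The interactions were -0.20 for Il6st, 0.10 for Lifr, 0.27 for Jak1 and -0.28 for Stat3 with both left out, and ranged from -0.12 to 0.42, -0.45 to 0.17, -0.48 to 0.33 and -0.10 to 0.47 with 1 left out; that of Stat3 was -0.13 with the Xist covariate. Of 627 values of single genes, 590 kept their direction and side of the threshold. The causes were not tested. Depth limits Clcf1, Osm, Lif and Il11, and a group of 3 mice with 1 library that stands apart limits the WT comparison.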
